A study of Mus musculus with 7 samples.

Results

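CTCF binding was mapped by ChIP-exo 5.0 in wildtype mouse organs, and the sites described here are the brain peak pairs that had no peak pair beside them in the deepest library of liver cells. Of 12000 peak pairs on the brain autosomes, 1066 lay more than 50 bp from every pair found in 2700000 liver cells, and they are called unmatched pairs. The other 10934 are called matched pairs. A pair is a forward-strand peak and a reverse-strand peak whose centre lies 10 to 80 bp downstream, each with at least 2 tags, a tag being an exonuclease stop. Candidates were matched from the largest summed tags down, and each peak was used once. In 402 unmatched pairs at least 1 of the peaks had tags that started at more than 1 position, and these are called spread. In the remaining 664 both peaks had all their tags at a single position, and these are called one-position pairs. The sites were chosen by their brain tags and by the absence of a liver cell pair, so those values are given as descriptions.

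There were 7 libraries, 1 per condition, so no difference between them has a replicate check and no test or p-value is given. Brain, lung, kidney and liver tissue came from wildtype adult male mice aged 16 weeks and was processed at 100 mg per organ, and the remaining libraries were made from liver and are labelled by cell number, as 2700000, 270000 and 27000 liver cells. The methods say that these numbers were estimated from tissue wet weight, and the paper presents the libraries as a liver cell titration. All carried the same CTCF antibody in the labels, although the extraction text names IgG. The methods give crosslinking in 1% formaldehyde and the labels 0.3%. The sources used here do not give the number of animals behind each library. The listed tags came to 1032833 for brain, 691479 for lung, 1635582 for kidney and 527038 for the liver organ, against 6592538, 640635 and 35594 in the liver cell libraries from the most to the fewest cells. An organ is a mixture of cell types, and fewer cells with a bound site cannot be told apart from less binding per cell. No RNA was measured, so the labelled tissue could not be checked against marker expression.

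CTCF is a zinc finger protein that binds a long DNA motif and, together with the ring-shaped cohesin complex, holds the bases of chromatin loops and the borders of domains. Most of its sites are occupied in many tissues, and a smaller share differs between cell types, where DNA methylation of the motif can block binding. In ChIP-exo, an exonuclease digests each strand from its 5′ end until it meets the crosslinked protein, so a bound site leaves a forward stop on its left side and a reverse stop on its right side.

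Sequence was to hand only for promoters, so sequences are given for unmatched pairs that fell in a gene promoter. The promoter table covered 250 bp before to 50 bp after each start for 31396 autosomal starts, and 48 unmatched pairs, 24 of them spread, lay in 47 of these promoters. In 5 promoters the 200 bp around the pair held at least 10 brain tags and no tags of lung, kidney or liver organ. These were Lsamp, Fam171a1, Meaf6, Pde1c and Dhps, a rule chosen after the values were seen, so they do not stand for all 47 promoters. Over those 47, 15 (31.9%) held a match to the CTCF core motif anywhere in the promoter with 1 mismatch allowed. Most pairs in promoters thus had no such match between their stops. Among the 5 named promoters, 4 had a spread pair, and 3 of these held a match with 1 mismatch between the forward and the reverse stop. Those stretches are printed on the plus strand 5′ to 3′ from RefSeq GRCm38.p6, which shares its coordinates with mm10. The 12 bases of the match are in capitals. Each stretch runs up to 75 bp to either side of the pair's centre and leaves out the start and the bases after it.
Lsamp, chr16:39984225-39984363, plus strand: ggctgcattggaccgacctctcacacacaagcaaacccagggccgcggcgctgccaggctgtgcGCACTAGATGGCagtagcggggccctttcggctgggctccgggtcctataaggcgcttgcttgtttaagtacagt
Fam171a1, chr2:3118218-3118368, plus strand: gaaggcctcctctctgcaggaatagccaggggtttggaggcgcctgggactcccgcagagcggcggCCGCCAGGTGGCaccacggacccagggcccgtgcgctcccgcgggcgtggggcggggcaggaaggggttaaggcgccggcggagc
Meaf6, chr4:125085032-125085133, plus strand: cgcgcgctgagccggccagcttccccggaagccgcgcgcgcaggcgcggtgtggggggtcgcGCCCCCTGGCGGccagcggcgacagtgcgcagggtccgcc
The match lay on the plus strand in Lsamp and Fam171a1 and on the minus strand in Meaf6. The fourth, Pde1c, had no match even with 1 mismatch, and its stretch is shown with the bases from the forward to the reverse stop in capitals.
Pde1c, chr6:56362393-56362505, plus strand: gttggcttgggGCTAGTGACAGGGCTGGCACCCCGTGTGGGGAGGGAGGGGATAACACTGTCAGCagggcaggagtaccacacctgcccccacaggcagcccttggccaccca

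Lsamp, which encodes a neuronal cell surface adhesion protein, had 2 spread pairs upstream of an annotated start. Their centres lay 118 and 64 bp before it, their windows overlapped, and the second pair lay inside the annotated gene. The brain library held 17 tags in the window of each. Lung, kidney and the liver organ had none listed, and the 2700000 liver cells held 3 and 7 tags in the respective windows, with their nearest pair 96060 and 96006 bp away. The capital bases above lay between the stops of the second pair, at 39984280 and 39984320. Pde1c, a calmodulin-dependent phosphodiesterase gene, had a pair 38 bp before an annotated start, with forward and reverse stops at 56362404 and 56362457. It held 11 brain tags, and no other library had a tag in the window. Fam171a1 had 19 brain tags and 10 liver cell tags, with a liver cell pair 66 bp away, so that this pair lay just past the limit of the rule. Meaf6, a subunit of histone acetyltransferase complexes, had 11 brain tags, 10 tags in the 2700000 and 2 in the 270000 liver cells. Dhps, the enzyme of the first step of hypusine formation, had a one-position pair of 10 brain tags and no tag elsewhere. A 0 here means that nothing was listed, and the lists begin at 2 tags per peak.

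The CTCF core motif, of which 12 positions were searched on both strands, was present without mismatch in 3 of the 47 promoters with an unmatched pair (6.38%, 95% Wilson interval 2.19 to 17.2), against 0.573% of all 31396 promoters and 81 of 492 promoters with a matched pair (16.5%). All 3 of these pairs, in H13, C1ra and Car7, lay within 200 bp of a liver cell pair. The search covered the whole 300 bp of each promoter and not the pair alone. In H13 and Car7 the 151 bp around the pair held no match, even with 1 mismatch. Of the 27 promoters with an unmatched pair further away than that, 0 held the motif, an interval that reaches 12.5%. With 1 mismatch allowed the shares were 22.2% (6 of 27, 10.6 to 40.8), 45.0% (9 of 20) for those within 200 bp, 51.6% for promoters with a matched pair and 4.41% for all promoters. In C1ra, a complement protease gene, the motif stood just outside the forward stop, and it is shown in capitals.
C1ra, chr6:124512545-124512620, plus strand: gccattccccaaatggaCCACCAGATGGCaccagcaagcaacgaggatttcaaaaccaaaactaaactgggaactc
The C1ra pair had 9 brain, 15 lung, 3 kidney and 0 liver organ tags, beside 100 tags of the 2700000 liver cells, whose nearest pair was 58 bp away. Promoters with unmatched pairs were rich in G and C, with a median of 63.0% against 53.0% over all promoters, and promoters with a matched pair had 60.3%. A match is a description of the letters and not a mapped binding site.

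Absence from the liver cells held for pairs but not for tags. In the 200 bp around the pair, the 2700000 liver cells held tags at 324 of the 402 spread pairs (80.6%, 76.4 to 84.2) and at 230 of the 664 one-position pairs (34.6%, 31.1 to 38.3). The same windows moved by 5 kb held tags at 43 (10.7%) and 51 (7.68%). Liver cell tags were thus listed far more often at these sites than beside them. At 172 spread pairs the liver cells had peaks on both strands, and at 48 they had a forward and a reverse peak within 50 bp that could have formed a pair but were matched to other peaks. All intervals are of the Wilson kind at 95%, which reflect counting error alone. The level was low, with a median of 8 liver cell tags at spread pairs against 123 at matched pairs. Of the 164 spread pairs within 200 bp of a liver cell pair, 163 held tags, with a median of 33. Such windows can take in the neighbouring liver cell site. The 238 further away held tags at 161 (67.6%), with a median of 3, against 18 moved windows (7.56%).

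The distance to the nearest liver cell pair split the sites. A liver cell pair lay 51 to 100 bp from 132 spread pairs (32.8%), and within 200 bp of 164, whereas it was 1 to 10 kb from 98 and over 10 kb from 122 (30.3%). One-position pairs lay further off, with 287 of 664 (43.2%) over 10 kb away and 76 (11.4%) at 51 to 100 bp. The limit of 50 bp marked no step in the values. The 167 matched pairs at 41 to 50 bp had a median of 6 brain tags and 56 liver cell tags, and 69.5% held lung tags. The 90 unmatched pairs at 51 to 60 bp had medians of 6 and 58 tags, and 65.6% held lung tags. Only 78 spread and 434 one-position pairs had no liver cell tag at all in their window.

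**Figure D1:**
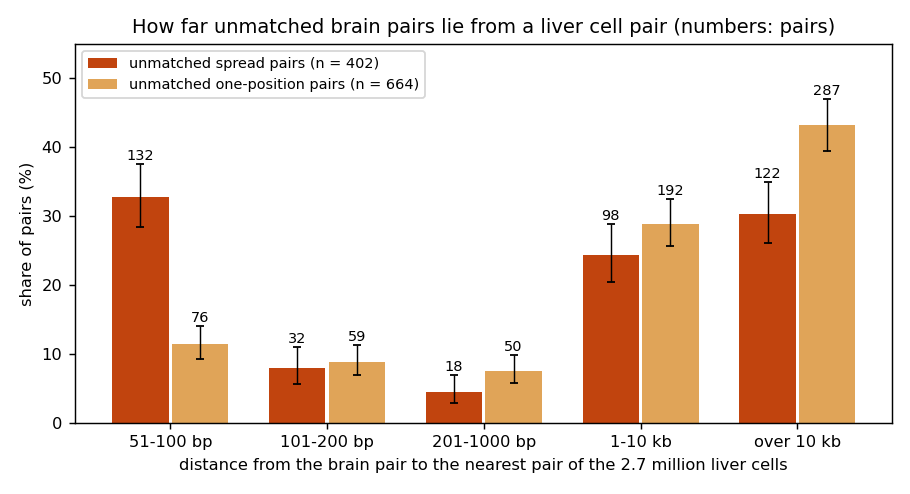
Share of unmatched brain pairs (y axis, %) by distance to the nearest pair of the 2700000 liver cells (x axis), for 402 spread and 664 one-position pairs, with 95% Wilson intervals and the number of pairs above each bar. Spread pairs sit mostly at 51 to 100 bp (132) or beyond 1 kb (98 and 122), and few lie in between.

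The other organs, which the rule did not use, held tags at many spread pairs. Lung held tags at 156 of 402 (38.8%, 34.2 to 43.7), kidney at 158 (39.3%, 34.7 to 44.2) and the liver organ at 84 (20.9%, 17.2 to 25.1). In the moved windows the counts were 7, 19 and 8. Over all 12000 autosomal brain pairs the shares were 72.2%, 66.4% and 48.1%, so these sites were held less often than brain pairs in general, outside the intervals in each organ. The 270000 liver cells held tags at 123 spread pairs (30.6%) against 69.8% of all brain pairs, and the 27000 liver cells at 5 (1.24%) against 9.72%. The last library is shallow, and its 5 sites stand against 3 moved windows.

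One-position pairs were held far less. Lung and kidney each held tags at 74 of 664 (11.1%, 8.97 to 13.8) and the liver organ at 24 (3.61%), with 11, 19 and 7 in moved windows. At the 434 one-position pairs without liver cell tags, lung held 10, kidney 18 and the liver organ 6, against 4, 15 and 5 moved windows, and these intervals overlap in each organ. Of these 434 pairs, 397 had no tag in any other library. One-position pairs that did have liver cell tags were held by lung at 64 of 230 (27.8%) and by kidney at 56 (24.3%). Matched pairs of the one-position kind were held by lung at 60.4% and by kidney at 52.8%.

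Among spread pairs, those with liver cell tags were also those held elsewhere. Lung held tags at 146 of the 324 with liver cell tags (45.1%, 39.7 to 50.5) but at 10 of the 78 without (12.8%, 7.12 to 22.0). Kidney held 142 (43.8%) and 16 (20.5%), and the liver organ 76 (23.5%) and 8 (10.3%). The moved windows of the 78 held tags in 0, 2 and 0 cases. These 78 sites were thus above the moved windows in lung, kidney and liver organ, and 51 of them had tags in brain alone of the 7 libraries. By distance, lung held tags at 95 of 164 spread pairs within 200 bp of a liver cell pair (57.9%) and at 61 of 238 further away (25.6%). Some of the former windows overlap those of a liver cell site next to them.

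**Figure D2:**
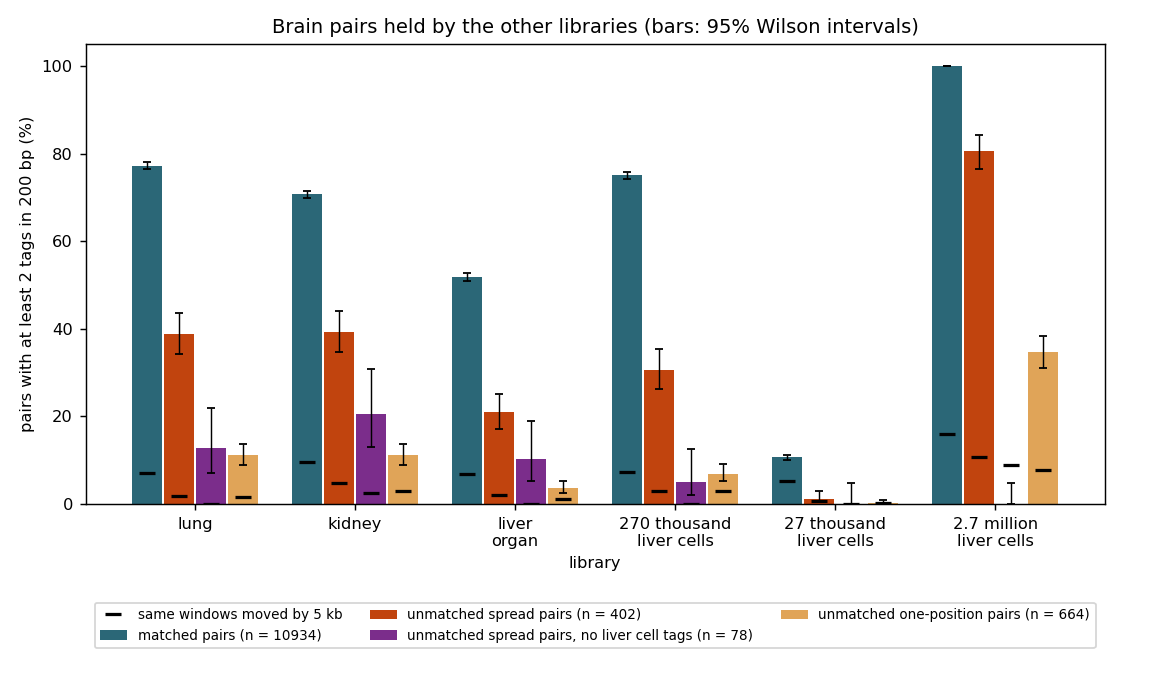
Share of brain pairs (y axis, %) with at least 2 tags in 200 bp in each other library (x axis), for matched pairs, unmatched spread pairs, the 78 of these without liver cell tags and unmatched one-position pairs, with 95% Wilson intervals; black dashes are the same windows moved by 5 kb. Spread pairs sit between matched and one-position pairs in lung (38.8%, against 77.2% and 11.1%) and kidney (39.3%, against 70.7% and 11.1%), and the 2700000 cell values of the unmatched pairs were in part set by the rule.

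The pairs were also compared within classes of brain tags. These are the tags of the forward and the reverse peak of the pair, not of the 200 bp. Unmatched pairs had a median of 6 brain tags, spread and one-position alike, against 7 for matched pairs. The largest unmatched pair outside dense regions had 62. Among pairs of 4 or 5 tags, lung held tags at 54 of 161 spread unmatched pairs (33.5%, 26.7 to 41.1) and at 1796 of 2402 spread matched pairs (74.8%, 73.0 to 76.5). Kidney held 33.5% and 65.7% of the same pairs. With 12 tags or more, lung held 21 of 30 unmatched pairs (interval 52.1 to 83.3%) and 86.1% of matched pairs, kidney 76.7% and 86.3%, and the liver organ 63.3% (45.5 to 78.1) and 75.1%. In that top class the intervals overlap in kidney and the liver organ but not in lung, where matched pairs had 84.5 to 87.5%.

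Organ by organ, 49 spread pairs had tags in lung, kidney and liver organ together, 50 in lung and kidney without the liver organ, 47 in lung alone of the 3, 46 in kidney alone and 12 in the liver organ alone. A further 10 were held by lung and liver organ and 13 by kidney and liver organ. The other 175 (43.5%, 38.8 to 48.4) had tags in none of these organs. The 49 held in all of them had a median of 8 brain tags and a median distance between stops of 31 bp, against 6 tags and 48 bp for the 175 held in none.

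A sharper comparison is a full pair at the same place. Lung had a pair within 50 bp of 35 spread pairs (8.71%, 6.33 to 11.9), kidney of 36 (8.96%) and the liver organ of 27 (6.72%), against 25.8%, 21.7% and 14.4% of all brain pairs. Windows moved by 5 kb had 2, 2 and 3. The 270000 liver cells had a pair at 7 (1.74%, against 27.2%) and the 27000 at 1 (0.249%, against 4.32%). One-position pairs had a pair in lung at 3 sites, in kidney at 3 and in the liver organ at 1.

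Where kidney or the liver organ had a pair too, its distance between stops was mostly within 5 bp of that in brain, and lung pairs matched less often. Outside dense regions, the liver organ pair at 21 of 24 sites had a distance between stops within 5 bp of that in brain (87.5%, 69.0 to 95.7), and kidney at 24 of 34 (70.6%, 53.8 to 83.2). At matched spread pairs outside dense regions these shares were 152 of 845 (18%) and 259 of 1650 (15.7%). Lung stood at 16 of 33 (48.5%, 32.5 to 64.8) against 18.1%. The organ's own pair had a median of 13.5 tags at unmatched and 6 at matched sites in the liver organ. In kidney the medians were 13 and 8, and in lung 13 and 13. Whether the number of tags affects this agreement was not tested. The unmatched sites include neighbouring pairs in Dop1b and near 4930559C10Rik, so they are not all separate. The stops themselves were 10 to 20 bp apart in 14 of the 24 liver organ pairs (58.3%, 38.8 to 75.5), 17 of 34 kidney pairs (34.1 to 65.9) and 13 of 33 lung pairs (39.4%), whereas matched pairs had 13%, 17.2% and 19.4%. Over all brain pairs 16.2% had stops that close, and 72 of the 402 spread pairs did (17.9%). At the 7 spread pairs with a pair in the 270000 liver cells, 0 had stops 10 to 20 bp apart in either library, and the median in brain was 61 bp. All spread pairs had a median of 48 bp, against 44 bp for matched pairs.

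**Figure D3:**
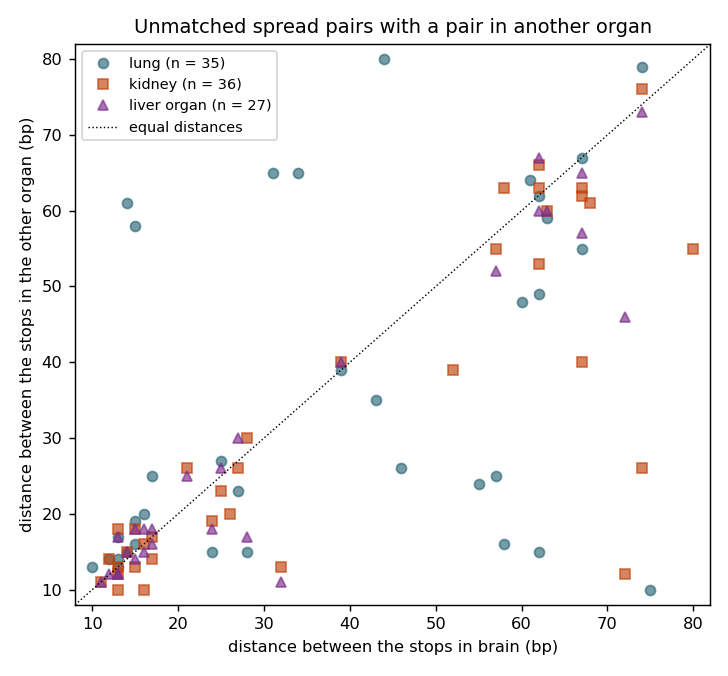
Distance between forward and reverse stops in brain (x axis, bp) and in lung, kidney or the liver organ (y axis, bp) for unmatched spread pairs with a pair in that organ; each point is 1 site in 1 organ and the dotted line marks equal distances. Within 5 bp of the line lie 26 of 36 kidney and 22 of 27 liver organ points, many at 10 to 20 bp on both axes, and 17 of 35 lung points.

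Dense regions, taken as the 23 bins of 10 kb where 6 libraries each had 20 peaks or more, lay on autosomes in 13 cases and held 873 matched but only 3 unmatched pairs, all spread. Outside them, 17 spread pairs had a pair in lung, kidney and liver organ, a subset drawn after the values were seen. Of these, 8 had stops 10 to 20 bp apart (47.1%, 26.2 to 69.0), 15 lay over 200 bp from a liver cell pair and 8 lay inside a gene. The forward stop was within 5 bp of that in brain in all 3 organs at 15 of the 17, and the reverse stop at 13. Summed over the 17 sites, tags per 1000000 listed tags were 433 for brain, 651 for lung, 490 for kidney and 1102 for the liver organ, against 42.3 in the 2700000 and 119 in the 270000 liver cells. The sites were picked for a pair in each organ and for no pair in the 2700000 liver cells. These levels are thus set in part by that choice. Neighbouring pairs in Dop1b, and likewise near 4930559C10Rik, had overlapping windows. Tags there can enter the sums more than once, and the 17 sites are not all separate. At the 199 matched spread pairs with a pair in all 3 organs the values were 14086 in brain, 14728 in lung, 11047 for kidney, 25681 in the liver organ and 11390 in the 2700000 liver cells.

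The pair with most brain tags summed over its forward and reverse peak, outside dense regions, lay on chromosome 15 from 21656411 to 21656610. It was 58090 bp from Cdh12, which encodes a cadherin of the nervous system. Brain had 62 tags there, lung 65, kidney 99 and the liver organ 77, but there were 2 in the 2700000 liver cells and none in the smaller cell libraries. Its stops were 14 bp apart in brain and 15 bp in each other organ, and the nearest liver cell pair was 46286 bp away. The brain and liver cell values here follow in part from how the site was chosen. By brain tags in the 200 bp, the site near 4930559C10Rik given below held more, with 82.

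Pairs in all organs also stood near Gm33172, and tags in all of them near Apob. On chromosome 13 from 110743948 to 110744147, between genes and 57354 bp from the noncoding gene Gm33172, brain held 27 tags, lung 21, kidney 46 and liver organ 31, with 4 in the 2700000 liver cells. The stops were 15 bp apart in brain, 19 in lung and 18 in kidney and liver organ. The site nearest to Apob, which encodes the main protein of low-density lipoprotein, was 51398 bp from the gene on chromosome 12 (7926131 to 7926330) and held 16, 7, 19 and 14 tags in brain, lung, kidney and liver organ, and 7 in the 2700000 liver cells. These are raw tags, not scaled for depth, so they do not rank the libraries. The 7 tags of the liver cells came from 6592538 listed tags, and the 7 of lung from 691479. Likewise kidney listed 1635582 tags and the liver organ 527038.

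Within Dop1b on chromosome 16, a gene of membrane trafficking at the Golgi, 2 spread pairs overlapped by their windows. The stronger, from 93789240 to 93789439, had 34 tags from brain, 34 from lung, 52 from kidney and 43 from the liver organ, against 13 and 4 from the 2700000 and 270000 liver cells. Its stops were 67 bp apart in brain and lung, 63 bp in kidney and 65 bp in the liver organ, so this wide pair recurred with similar spacing. The second window held 38, 38, 49 and 45 tags in the organs.

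At other named sites the liver cells held from 13 to 77 tags. The site 132206 bp from the noncoding gene 4930559C10Rik on chromosome 12 (93576929 to 93577128) held 82 brain, 81 lung, 182 kidney and 116 liver organ tags, and 68 liver cell tags from a library whose nearest pair was 52 bp away. Slc18b1, which encodes a vesicular polyamine transporter, held a site with 31, 27, 47 and 27 organ tags and 77 liver cell tags, on chromosome 10 from 23811575 to 23811774. In Lama1, the gene of a basement membrane laminin chain, the window on chromosome 17 from 67741432 to 67741631 had 47, 31, 80 and 50 organ tags, with 71, 25 and 6 in the liver cell libraries from the most to the fewest cells. It was the only named site with tags in all 7 libraries, and its liver cell pair was 74 bp away. Near Sema6d, an axon guidance gene, a site on chromosome 2 (124003614 to 124003813) held 18, 14, 24 and 13 organ tags and 20 liver cell tags, and in the noncoding gene Gm30305 on chromosome 11 (64682525 to 64682724) the values were 17, 10, 30, 28 and 13.

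The remaining strong sites were high in brain and low elsewhere. A pair within Cadm2, which encodes a synaptic adhesion molecule, lay on chromosome 16 from 67089826 to 67090025 with 23 brain tags, 2 kidney tags and 3 tags of the 2700000 liver cells. Lung and the liver organ had none listed. The nearest liver cell pair was 142670 bp away. A pair 13841 bp from Slc30a5, a zinc transporter gene, had 19 brain tags, none in the other organs and 4 in the 2700000 liver cells, on chromosome 13 from 100847221 to 100847420. These 2 sites had stops 13 and 54 bp apart.

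The 5 strongest spread pairs with no peak of any other library within 100 bp were smaller. Besides the Pde1c promoter, they were a site 12360 bp from Map9, a microtubule-associated protein gene, with 11 brain tags on chromosome 3 (82407528 to 82407727), and a site in Cog4, which encodes a subunit of a Golgi tethering complex, with 11 tags on chromosome 8 (110859729 to 110859928). The last of them were in the noncoding gene Gm30905 with 9 tags and in Vwa8, 231 bp from a start, with 8. Their stops were 18 bp (Cog4) to 65 bp (Gm30905) apart. Whether lung and the liver organ, whose listed tags were fewer than in brain, would list a site of this strength was not tested.

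One-position pairs with most tags were likewise held in few libraries. The strongest, 39129 bp from Fancf, a gene of DNA crosslink repair, had 10 forward and 7 reverse tags on chromosome 7 (51821348 to 51821547) and none in another library. A pair in 9130209A04Rik on chromosome 18 had 14 tags and none elsewhere. A pair in Pnliprp2, a pancreatic lipase-related gene, on chromosome 19 held 16 brain tags in its window, 4 in kidney and 4 in the 2700000 liver cells. All tags of such a peak start at 1 base, and whether they are separate molecules was not tested.

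**Figure D4:**
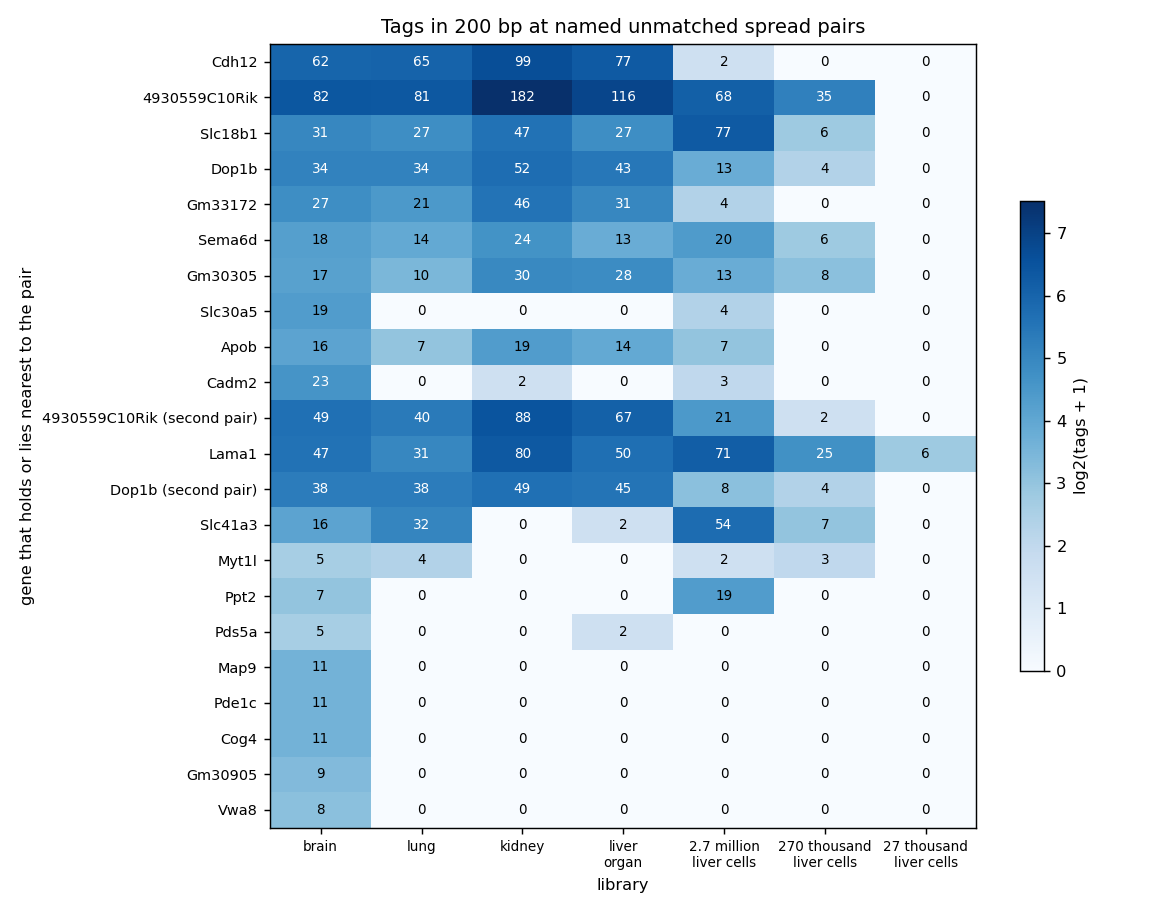
Tags in 200 bp (numbers, shaded by log2 of tags + 1) at named unmatched spread pairs (rows, by the gene that holds or lies nearest to them) in the 7 libraries (columns). Most of the upper rows are dark in all 4 organs, such as Cdh12 with 62, 65, 99 and 77 organ tags, with liver cell values from 2 to 77, while the lowest rows from Map9 on have tags in brain alone.

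The strand order around spread pairs was counted in each library, without intervals, and differences between libraries were not tested. In brain, 78.8% of the forward peaks in the 200 bp lay left of the centre and 78.5% of the reverse peaks right of it, which the pairing fixes. In lung, 92 of 144 forward peaks (63.9%) lay left and 90 of 157 reverse peaks (57.3%) right, and in kidney 58.2% and 57.7%. The liver organ had 62.8% and 68.2%, the 2700000 liver cells 55.8% and 59.5%, and the 270000 liver cells 54.0% and 46.3%. At matched pairs lung had 62.7% and 63.1%. At one-position pairs the lung reverse peaks lay right of the centre in 28.6% of 49 and the forward peaks left in 53.8% of 52. Kidney had 46.3% of 41 reverse peaks right and 62% of 50 forward peaks left. The liver organ had 38.5% of 13 and 57.9% of 19. These counts are small, and most reverse peaks lay right of the centre in none of these organs.

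**Figure D5:**
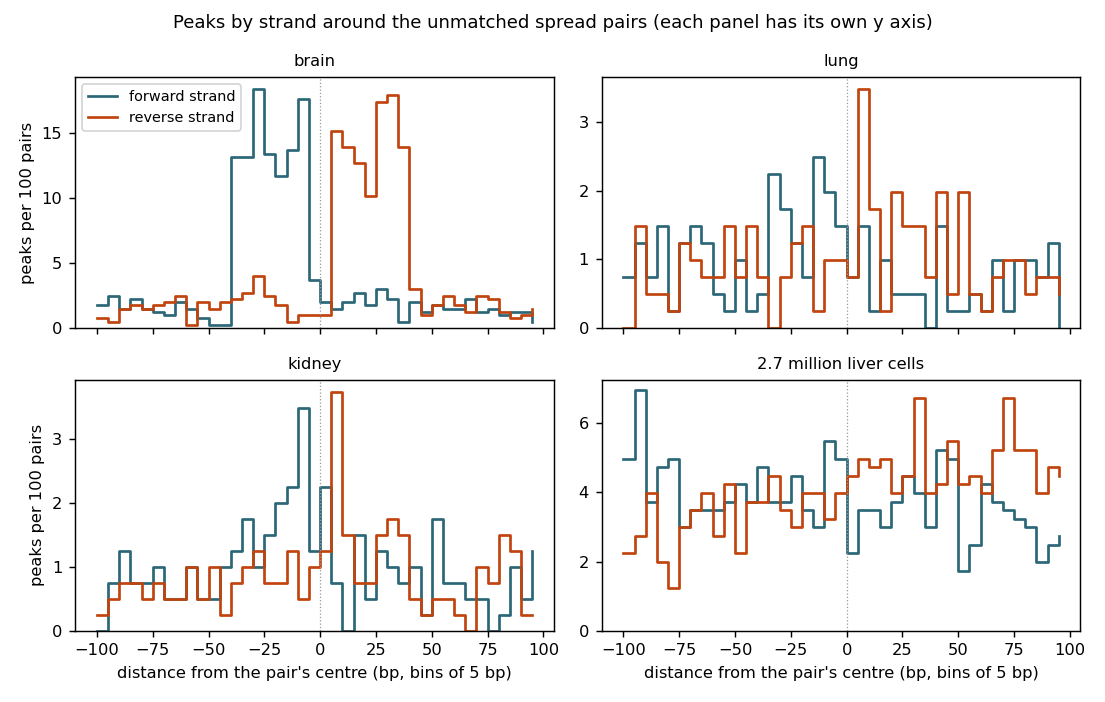
Forward and reverse peaks per 100 pairs (y axis) by distance from the centre of the 402 unmatched spread pairs (x axis, 5 bp bins), in brain, lung, kidney and the 2700000 liver cells, each panel with its own y axis. The brain order of forward before reverse is set by the pairing; in lung and kidney the reverse peaks are highest in the bin that starts 5 bp right of the centre, and the liver cells show no single maximum at the centre.

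Unmatched pairs lay near gene starts about as often as other brain pairs, and more of them lay inside genes. A start lay within 1 kb of 49 of 391 spread pairs (12.5%, 9.61 to 16.2) and of 75 of 642 one-position pairs (11.7%, 9.42 to 14.4), against 11.5% of all brain pairs with a start table. Moved windows had 16 (4.09%) and 16 (2.49%). Both kinds thus lay near starts more often than the moved windows did, one-position pairs included. Inside a gene were 230 of 402 spread (57.2%, 52.3 to 62.0) and 385 of 664 one-position pairs (58.0%, 54.2 to 61.7), against 49.9% of all brain pairs. The moved windows of both kinds had 61.4% and 58.1%, so these shares were no higher than beside the pairs. Of the matched pairs 49.1% lay inside a gene, and of their moved windows 53.1%. By chromosome, the unmatched share of brain pairs ran from 4.33% on chromosome 9 (57 of 1315) to 12.6% on chromosome 15 (64 of 506), and 30 of the 402 spread pairs had another within 200 bp.

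Few genes of the brain lists lay near these pairs. Of 25 neuron genes, 3 had a one-position pair within 20 kb. Of 20 glia genes, 1 had a spread pair and 1 a one-position pair, and of 31 neural transcription factor genes 1 had a spread pair. Over all 33069 autosomal genes the shares were 1.74% for spread and 2.85% for one-position pairs, and the neuron genes were longer, with a median of 52.3 kb against 12.9 kb. The spread pair near Aldh1l1, an astrocyte enzyme gene, lay inside its neighbour Slc41a3 and had 16 brain, 32 lung, 0 kidney, 2 liver organ and 54 liver cell tags. The one in Myt1l, a neuronal zinc finger gene, had 5 brain, 4 lung and 2 liver cell tags. The one-position pairs lay near Syt1, Nrxn3 and Bdnf among neuron genes and near Slc1a3 among glia genes.

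Genes of other tissues were counted in the same way. None of 24 hepatocyte genes and none of 57 clustered protocadherin genes had an unmatched pair of either kind within 20 kb. The protocadherins are a family whose promoter choice depends on CTCF. Over all genes the shares were 1.74% for spread and 2.85% for one-position pairs. An absence from lists this short does not set either list apart. A matched pair lay near 9 hepatocyte genes (37.5%) and 18 protocadherin genes (31.6%), against 31.7% of all genes. Of 20 lung genes 1 had a spread pair, Ager, a marker of alveolar type I cells. That pair lay in the neighbouring Ppt2 with 7 brain and 19 liver cell tags and none in lung. Of 15 CTCF and cohesin genes, Pds5a, which regulates cohesin release, had a spread pair 276 bp from a start with 5 brain and 2 liver organ tags, and Smc3, a core cohesin subunit, a one-position pair. Of 19 kidney, 17 blood cell and 15 widely expressed genes none had a spread pair, and Wt1, Ms4a1 and Tubb5 had a one-position pair.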

How the data were processed

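Reads of 2 × 40 bp were aligned by the authors, who dropped non-unique alignments and read pairs with identical ends. Their processing notes list bcl2fastq 2.16, BWA 0.7.9a and mm10, whereas the methods text names the yeast and human genomes. The authors deposited, per library, strand-specific 21 bp peaks with a count of tags, not normalized, and the standard deviation of tag positions. The lowest count listed is 2, so weaker signal is not seen. From these counts, peaks were paired, and tags were summed in windows of 200 bp centred on the pair and in the same windows moved by 5 kb. The pairing was tested on simulated data. Genes and sequences came from RefSeq GRCm38.p6. The promoter table has no chromosome 18. Shares carry 95% Wilson intervals. Members and gene lists were chosen with earlier results of these data known. Named sites were the 10 spread pairs with most brain tags outside dense bins, the 5 with the highest product of lung and kidney tags + 1, the strongest spread pair near each gene list (some are not reported here), the 3 strongest one-position pairs, and the 5 strongest spread pairs with no peak of another library within 100 bp. No genome was used, so the planned motif search around every pair was replaced by one in promoters. Alternatives covered the liver cell distance, the pairing window, tag minimums, dense bins, window and gene distance. Computation used pandas 2.3.3, numpy 2.4.6, matplotlib 3.10.9 and scipy 1.17.1 in Python 3.11.15.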

Additional observations from a re-analysis of the deposited data

How the results depend on the processing

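With no replicates, libraries cannot be left out, and no paired analysis was possible because the labels give no replicate numbers. Of 69 alternative values, 36 stayed within 1.5 times the main count or within its counting interval, and 33 moved. Asking for no liver cell peak of either strand within 50 bp left 597 pairs, 118 of them spread. Asking for 5 tags in each brain peak left 43 and 29, and asking for both peaks to be spread left 148. For lung, kidney, liver organ and 270000 cells, the shares of spread pairs with tags became 27.6%, 29.4%, 13.9% and 20.9% in windows of 100 bp, 27.4%, 20.6%, 9.20% and 13.4% with at least 5 tags, and 23.4%, 22.4%, 15.7% and 21.4% without one-position peaks. In alternatives chosen after seeing the data they were 12.8%, 20.5%, 10.3% and 5.13% without liver cell tags and 25.6%, 30.3%, 16.8% and 16% over 200 bp from a liver cell pair, and the 27000 cells then held 0% and 0.420%. Without dense bins the 27000 cells had a pair at 0% of spread pairs. Within 5 kb of a start lay 25.3% of spread pairs. With genes within 5 kb, 1.07% of all genes and 0% of glia and lung genes had a spread pair. With 1 mismatch, chosen after seeing the data, 31.9% of promoters held the motif. The planned wider motif search around every pair was not run, since it needs a genome sequence. Sites of 4 or 5 tags are at the limit of what the brain depth shows, and a peak under 2 tags is not listed.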

Other observations

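Outside the autosomes, the X chromosome of brain held 120 peak pairs, of which 12 (5.81 to 16.7%) had no liver cell pair within 50 bp, and 3 of these were spread. Lung held tags at 2 of the 3.

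Among the 78 spread pairs without liver cell tags, 4 had tags in lung, kidney and the liver organ together. The site in Pxylp1, which encodes a phosphatase acting on proteoglycan linkers, on chromosome 9 from 96853078 to 96853277 held 9 brain, 11 lung, 13 kidney and 16 liver organ tags, with stops 13 bp apart in brain, 14 bp in lung and 12 bp in kidney and liver organ. The site in Abhd6, a lipid hydrolase gene, on chromosome 14 from 8005934 to 8006133 held 5, 13, 11 and 10 tags. The others lay 194865 bp from Cr2, a complement receptor gene, with 7, 7, 19 and 3 tags, and in Arsb, a sulfatase gene, with 4, 2, 9 and 3. None of the 3 liver cell libraries had a listed tag at any of these 4 sites.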
